A study of Mus musculus with 8 samples.

Results

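The 8 genes described here handle heme and iron, or mark the macrophages best known for it: Spic, Hmox1, Blvrb, Slc40a1, Fth1, Ftl1, Tfrc and Slc11a1. They were taken by name from the 24787 genes listed in the single-cell count tables of the series, and all 8 were present. Counts came from mouse tumors of MC38, a colon carcinoma line. Per the methods, MC38 cells were grown under the skin of C57BL/6 mice, the C57BL/6J animals being 8-week-old females, and no dose was given for the single-cell experiment. Tumors were taken 24 h after injection of saline (3 tumors), free R848 (3 tumors) or medium R848-BPDs (2 tumors). R848 is a small molecule agonist of Toll-like receptors 7 and 8. Medium R848-BPDs are bottlebrush polymers that carry R848 on cleavable ester linkers of intermediate release rate. No tumor received an empty polymer, so the carrier and the drug cannot be told apart in the medium R848-BPD group. MC38 is a single transplanted line, each tumor is 1 mouse, and CD45+ cells were enriched over CD45- cells before loading, so cell shares do not give the makeup of the tumor.

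Cells were captured on Seq-Well arrays, in which each RNA molecule is counted once by a molecular tag (UMI). Tumors held 5867590 to 12422614 UMIs, with a median of 3247 to 6928 per cell. Of 10791 barcodes, 9886 passed the limits on cells. A set of 23 barcodes appeared in more than 1 library, 9 of them in all 8, and 48 cells whose barcode was in at least 3 libraries were left out, which left 9838. Marker genes placed 8610 of these in 9 classes, with none of the 8 genes used: 4181 macrophage-like, 994 monocyte-like, 399 DC-like, 89 neutrophil-like, 118 osteoclast-like, 541 T-like, 789 NK-like, 1443 MC38-like and 56 fibroblast-like cells. The line between macrophage-like and monocyte-like cells was a limit on a score: 667 of 5175 such cells lay within 0.5 log2 units of it, and only 53.7% of monocyte-like cells fell in that class again when classes came from clusters (95.5% of macrophage-like cells did). Markers of red blood cell precursors gave 28 UMIs in all cells together, so erythroid cells were near 0. Levels are given as CPM, UMIs of the gene scaled to a common total per class sum, after TMM scaling within a class, and tests compared tumors, not cells.

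Heme is opened by heme oxygenase (Hmox1) into biliverdin, carbon monoxide and iron. Biliverdin reductase B (Blvrb) reduces biliverdin and flavins. The freed iron is stored in ferritin, a shell of heavy (Fth1) and light (Ftl1) chains, or leaves the cell through ferroportin (Slc40a1), the one known iron exporter of mammals. Iron enters most cells as transferrin bound to the transferrin receptor (Tfrc), and Slc11a1 (NRAMP1) moves iron out of the phagosome in macrophages. Spic is a transcription factor needed for the red pulp macrophages of the spleen, which recycle the iron of old red blood cells, and heme can induce it in monocytes.

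Iron also sets the fate of some of these mRNAs. Iron regulatory proteins bind a short hairpin, the iron-responsive element. In a 5′ UTR they hold back translation when iron is low, and in the 3′ UTR of Tfrc they protect the mRNA from decay. The hairpins are shown because a gene regulated through a 5′ element can change its protein with no change in the mRNA counted here. A search for a bulged C, 5 paired bases, a CAGTGN loop and the 5 paired bases of the other side found 1 match each in Slc40a1, Fth1 and Ftl1 and 4 in Tfrc in 1 reference transcript a gene (GENCODE vM21). Of 21877 coding genes, 294 (1.34%) held such a match. No match lay in those transcripts of Spic, Hmox1, Blvrb or Slc11a1, which says only that these letters are not there. Capitals mark the loop, sequences run 5′ to 3′ along the mRNA, and positions are on GRCm38.
Slc40a1, 5′ UTR, chr1:45925467-45925491, minus strand: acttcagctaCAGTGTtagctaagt
Fth1, 5′ UTR, chr19:9982734-9982758, plus strand: cctgcttcaaCAGTGCttgaacgga
Ftl1, 5′ UTR, chr7:45459781-45459805, minus strand: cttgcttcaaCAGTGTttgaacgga
Tfrc, 3′ UTR, chr16:32631221-32631245, plus strand: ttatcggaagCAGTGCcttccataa
Tfrc, 3′ UTR, chr16:32631600-32631624, plus strand: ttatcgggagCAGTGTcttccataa
Tfrc, 3′ UTR, chr16:32631665-32631689, plus strand: atatcggagaCAGTGAtctccatat
Tfrc, 3′ UTR, chr16:32631712-32631736, plus strand: ttatcgggaaCAGTGTttcccataa
The elements of Fth1 and Ftl1 share the same paired bases beside the loop. The genes themselves lie at chr10:88674772-88685015 (Spic, minus strand), chr8:75093621-75100589 (Hmox1, plus), chr7:27447978-27466144 (Blvrb, plus), chr1:45908068-45926523 (Slc40a1, minus), chr19:9980598-9985098 (Fth1, plus), chr7:45457944-45459884 (Ftl1, minus), chr16:32608920-32632794 (Tfrc, plus) and chr1:74375195-74386062 (Slc11a1, plus). Ftl1 overlaps 2 other annotated genes, 1 on its own strand, and the annotation names 3 pseudogenes of the light chain and 2 of the heavy chain. Near-identical copies can take or lend reads, so the ferritin counts are uncertain to that extent.

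The 8 genes fell into different patterns over the cell classes. Ferritin, Hmox1 and Slc11a1 were read mostly in macrophage-like, monocyte-like and neutrophil-like cells, whereas Tfrc ran the other way. Neutrophil-like cells reached 10, the number needed for a sum, only in free R848 replicate 3 and the medium R848-BPD tumors, so they are compared with other classes in those tumors alone. The mean of Fth1 over all tumors was 12282 CPM in macrophage-like and 11447 in monocyte-like cells, against 4689 in osteoclast-like, 2785 in DC-like and 2514 in T-like cells, and MC38-like (2246) and NK-like cells (1536) came last. In the medium R848-BPD tumors Fth1 averaged 15640.5 CPM in neutrophil-like, 19800.1 in macrophage-like and 21470.5 in monocyte-like cells, whereas in free R848 replicate 3 the neutrophil-like sum was the highest of these, at 15512 against 10709 and 9091. Ftl1 averaged 994 CPM in macrophage-like and 771 in monocyte-like cells over all tumors, and its lowest means were in NK-like (186) and MC38-like (174) cells. In the medium R848-BPD tumors Ftl1 averaged 1109.8 CPM in neutrophil-like, 1452 in macrophage-like and 1191 in monocyte-like cells. Slc11a1 averaged 909 CPM in macrophage-like and 601 in monocyte-like cells and lay between 516 and 724 in neutrophil-like sums, and no other class had a mean above 55.5. It was higher in monocyte-like than in T-like cells in 8 of 8 tumors, with no overlap (377 CPM in the lowest monocyte-like and 176 in the highest T-like sum).

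Hmox1 averaged 338 CPM in macrophage-like, 229 in monocyte-like and 113 in MC38-like cells, and between 5.93 and 46.3 in the others. In the medium R848-BPD tumors its mean was 292 CPM in neutrophil-like, 801 in macrophage-like and 405 in monocyte-like cells, and in free R848 replicate 3 it was 496, 269 and 314. For Blvrb the order depended on the treatment. It averaged 104 CPM in macrophage-like, 54.8 in monocyte-like and 111 in MC38-like cells after saline, 157, 84.5 and 110 after free R848, and 402, 237 and 101 after medium R848-BPDs. Tfrc was highest in the osteoclast-like cells, at 1202 CPM in the 1 free R848 tumor and 2192 in the 1 saline tumor that held enough of them. MC38-like, T-like and NK-like cells followed at 465, 439 and 428 CPM, and macrophage-like cells came last at 46.3.

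Spic and Slc40a1 were read from few UMIs in every class. In monocyte-like cells Spic lay between 0 and 7.79 CPM after saline and between 2.16 and 28.6 after free R848, and was at 115 (40 UMIs) and 18.2 CPM (4 UMIs) after medium R848-BPDs. Its mean over all tumors, 22.8 CPM against 12.9 in macrophage-like cells, thus leaned on medium R848-BPD replicate 1, and in replicate 2 monocyte-like cells were below macrophage-like cells (36.8). DC-like cells averaged 8.31 CPM, and the neutrophil-like sums held 2 Spic UMIs, both in medium R848-BPD replicate 2. T-like (1.34), MC38-like (0.672) and NK-like cells (0.607) were lowest. Slc40a1 gave 155 CPM in the neutrophil-like cells of free R848 replicate 3 and 82.0 and 60.9 CPM in those of the medium R848-BPD tumors, from 15, 6 and 5 UMIs, against 20.7, 16.5 and 26.4 CPM in the macrophage-like cells of the same tumors. Its mean was 11.2 CPM in macrophage-like and 6.22 in monocyte-like cells, and T-like and NK-like cells held 0 UMIs. Osteoclast-like cells reached 10 in 1 free R848 and 1 saline tumor, so their means are likewise over another mix of treatments. Of 55 tests of neighbours in these orders, paired by tumor and exact, none passed after adjustment. The smallest unadjusted p that 8 pairs allow is 0.0078, and many pairs rested on fewer tumors, so these tests could hardly pass and do not show that neighbours were alike. Pairs of Spic or Slc40a1 between classes at or near 0 UMIs are void, because the offset added to the counts before taking logs sets their difference. Over saline tumors alone, in which no tumor held 10 neutrophil-like cells, the highest of the classes measured in both orders was the same for 6 of 8 genes. The exceptions were Spic, highest in DC-like cells after saline, and Blvrb, highest in MC38-like cells.

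**Figure D1:**
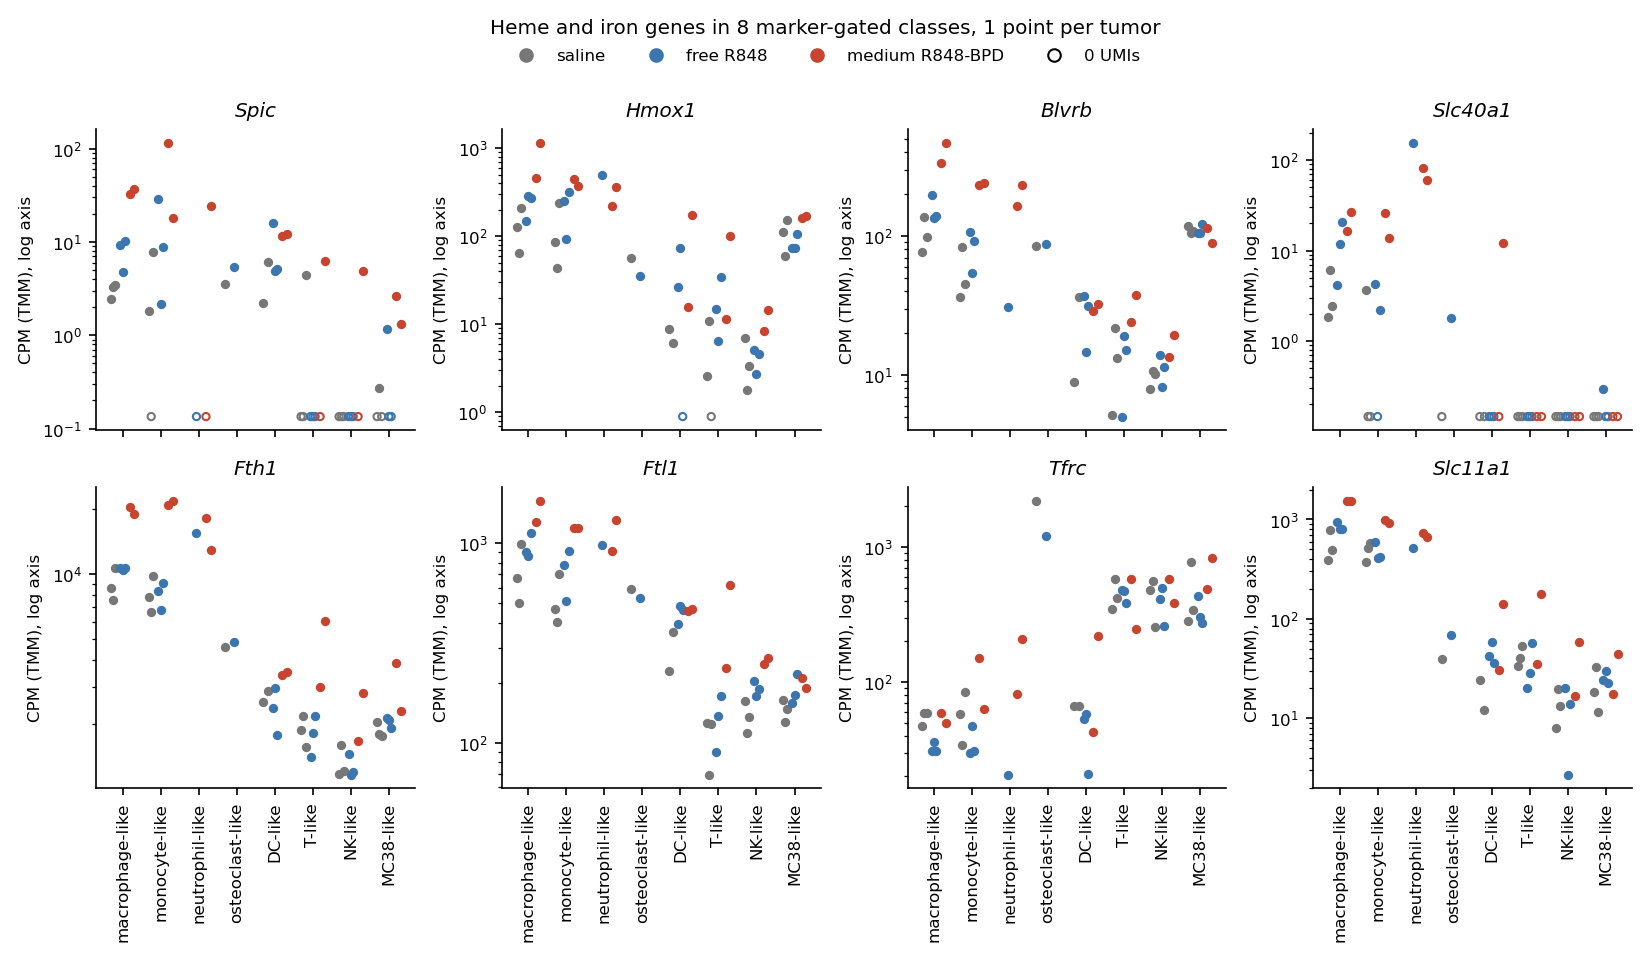
Level of each gene (CPM, log axis) in 8 classes, with 1 point per tumor colored by treatment and open points for sums with 0 UMIs. Fth1 and Slc11a1 are high in macrophage-like, monocyte-like and neutrophil-like cells, Tfrc is highest in osteoclast-like cells (1202 and 2192 CPM), and Slc40a1 is at 0 UMIs in all T-like and NK-like sums.

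In macrophage-like cells all 8 genes were higher on average after medium R848-BPDs than after free R848, and 3 of 8 passed the test of edgeR's quasi-likelihood fit with Benjamini-Hochberg adjustment over 10305 genes: Spic, Blvrb and Fth1. Over all genes the share called was 1.52%, of which 0.98 percentage points were higher. Against saline, 6 of 8 rose after medium R848-BPDs, where the share of all genes was 8.43%, of which 4.22 percentage points were higher. Free R848 against saline gave 0 of 8 calls, and 0.0% of all genes passed, although 1382 had an unadjusted p under 0.05. DESeq2 called 1 of the 8 genes and the fit with no filter on low counts 6, and both also called more of all genes. The comparisons with saline and with free R848 share the 2 medium R848-BPD tumors and are not independent of each other. In these sums of RNA a change in the kinds of macrophage-like cells present and a change of RNA per cell cannot be told apart.

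Spic, the transcription factor, gave 2.45, 3.29 and 3.45 CPM after saline, 9.38, 4.82 and 10.4 after free R848, and 32.4 and 36.8 after medium R848-BPDs. Both medium R848-BPD tumors lay above every free R848 tumor, and these above every saline tumor. The log2 fold change was 2.10 ± 0.29 (SE) against free R848 (edgeR adjusted p = 0.0121) and 3.48 ± 0.32 against saline (adjusted p = 0.000616). Between free R848 and saline it was 1.37 ± 0.33 and did not pass (adjusted p = 0.164). These levels rest on 7 to 21 UMIs per saline tumor, 19 to 32 per free R848 tumor and 155 and 78 in the medium R848-BPD tumors. The call against saline held in 18 of 18 alternative settings. The call against free R848 held in 16, and was lost without medium R848-BPD replicate 2 (log2 fold change 1.99, adjusted p = 0.0938) and with a replicate block (2.25, adjusted p = 0.055).

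The enzymes of heme breakdown were next. Hmox1 was at 125.5, 64.6 and 211 CPM after saline, 149.9, 284 and 269 after free R848, and 455 and 1148 after medium R848-BPDs. The medium R848-BPD tumors were the highest of all and lay far from each other. Hmox1 rose against saline by 2.59 ± 0.52 on the log2 scale (edgeR adjusted p = 0.0197). The difference from free R848, 1.77 ± 0.51, did not pass (adjusted p = 0.135). The call against saline held in 15 of 18 settings. It was lost without medium R848-BPD replicate 2 (log2 fold change 1.74) and without saline replicate 1 (2.55, edgeR adjusted p = 0.0695). With only medium R848-BPD and saline tumors in the fit it was lost too.

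Blvrb was at 76.9, 137 and 99.1 CPM after saline, 197, 135.5 and 139.8 after free R848, and 336 and 467 after medium R848-BPDs. The saline and free R848 tumors overlapped, and the medium R848-BPD tumors stood above them all. Blvrb rose by 1.34 ± 0.25 against free R848 (edgeR adjusted p = 0.0398) and by 1.94 ± 0.26 against saline (adjusted p = 0.00419). The call against saline held in 18 of 18 settings. The call against free R848 held in 10 of 18, and leaving out any 1 free R848 tumor (adjusted p = 0.067, 0.153 and 0.16) or medium R848-BPD replicate 2 (adjusted p = 0.301) ended it. Hmox2, the constitutive heme oxygenase, rose less against saline, by 0.60 ± 0.14 (adjusted p = 0.0343).

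Slc40a1, the iron exporter, gave 1.84, 6.10 and 2.46 CPM after saline, 4.11, 11.7 and 20.7 after free R848, and 16.5 and 26.4 after medium R848-BPDs. The free R848 and saline tumors overlapped, and free R848 replicate 3 lay between the medium R848-BPD tumors. Against saline Slc40a1 rose by 2.41 ± 0.61 (edgeR adjusted p = 0.0424), a call that held in 11 of 18 settings. It was lost without either medium R848-BPD tumor (adjusted p = 0.0631 and 0.232), without free R848 replicate 2 (0.0725), and when saline replicate 1 (0.117) or 3 (0.0737) was left out. Against free R848 the difference was 0.85 ± 0.57 (adjusted p = 0.564).

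Fth1, the ferritin heavy chain, was at 8641, 7545 and 10687 CPM after saline, 10634, 10442 and 10709 after free R848, and 20578 and 19022 after medium R848-BPDs. Both medium R848-BPD tumors stood above all others, and saline and free R848 tumors overlapped. Fth1 rose by 0.89 ± 0.18 against free R848 (edgeR adjusted p = 0.0498) and by 1.13 ± 0.18 against saline (adjusted p = 0.00871). The call against saline held in 17 of 18 settings and was lost with only medium R848-BPD and saline tumors in the fit (adjusted p = 0.0695). The call against free R848 stood at the threshold and held in 9 of 18 settings, with log2 fold changes between 0.83 and 0.97 throughout, and it was lost without any 1 of the free R848 or medium R848-BPD tumors (adjusted p = 0.117 to 0.206) and without saline replicate 1 (0.0776). The light chain Ftl1 was at 666, 499.9 and 993 CPM after saline, 904, 861 and 1127 after free R848, and 1275 and 1628 after medium R848-BPDs. Its differences were 0.58 ± 0.28 from free R848 (adjusted p = 0.387) and 1.00 ± 0.28 from saline (adjusted p = 0.057), and neither passed.

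Slc11a1, the phagosomal iron transporter, was at 395.0, 776 and 488 CPM after saline, 939, 799.6 and 804 after free R848, and 1538 and 1536 after medium R848-BPDs. Saline replicate 2 lay close to the free R848 tumors, and both medium R848-BPD tumors were well above. It rose by 1.47 ± 0.24 against saline (edgeR adjusted p = 0.00914), a call that held in 16 of 18 settings. The call was lost without medium R848-BPD replicate 2 and with only medium R848-BPD and saline tumors in the fit. The difference from free R848, 0.85 ± 0.24, did not pass (adjusted p = 0.126). Tfrc, the receptor for transferrin iron, had another shape, at 47.2, 58.7 and 58.6 CPM after saline, 31.1, 36.0 and 30.6 after free R848, and 58.7 and 49.6 after medium R848-BPDs. Free R848 tumors were the lowest, while the other groups overlapped. The log2 difference of free R848 from saline was -0.74 ± 0.13 (adjusted p = 0.145), that of medium R848-BPDs from free R848 0.72 ± 0.15 (adjusted p = 0.0509) and that of medium R848-BPDs from saline -0.02 ± 0.15 (adjusted p = 0.957). The middle value passed in 6 of 18 settings and the first in 2.

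**Figure D2:**
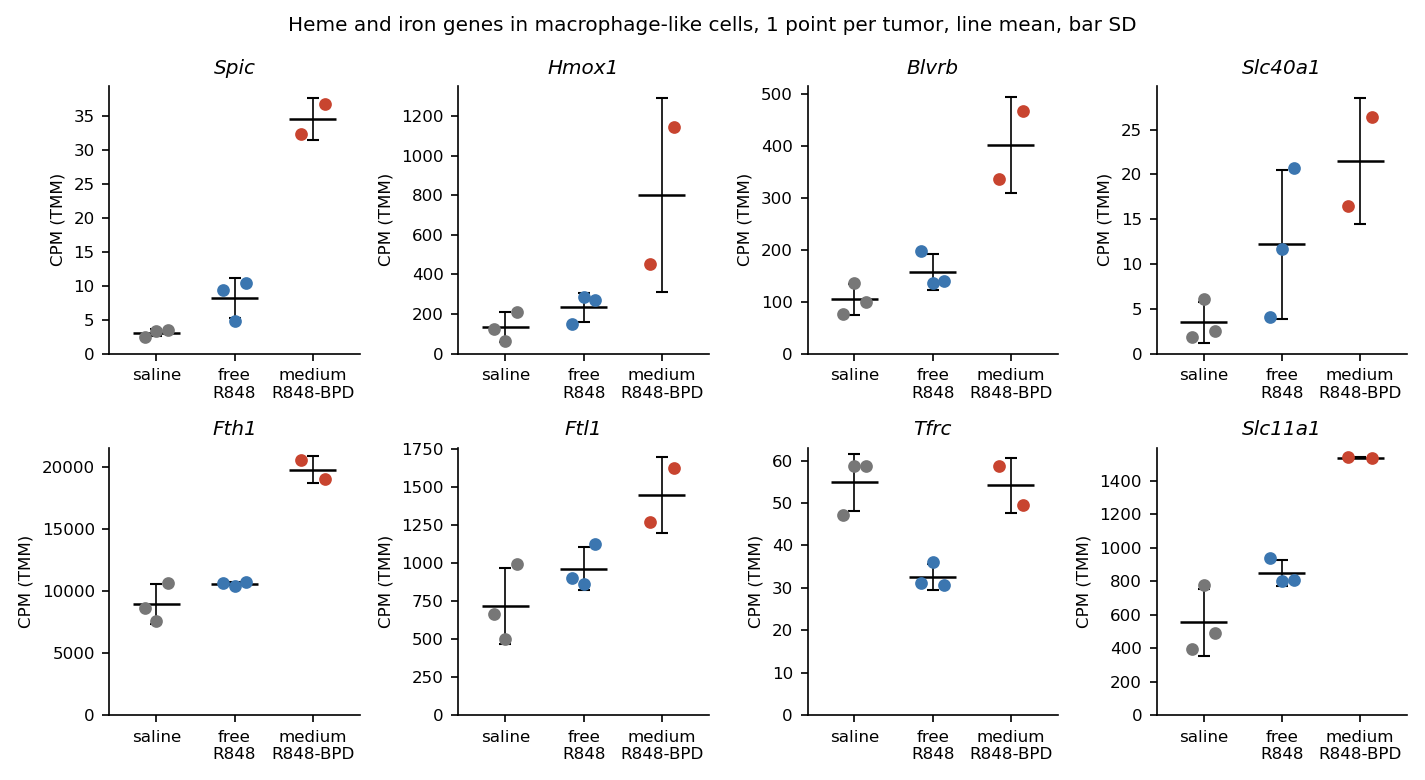
Level of each gene in macrophage-like cells (CPM, linear axis from 0), with 1 point per tumor, the group mean as a line and the SD as a bar, for 3 saline, 3 free R848 and 2 medium R848-BPD tumors. The medium R848-BPD tumors lie above all others for Spic (32.4 and 36.8 CPM), Hmox1, Blvrb, Fth1, Ftl1 and Slc11a1, whereas for Tfrc the free R848 tumors are the lowest.

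Markers of other classes moved with the treatment inside the macrophage-like gate. The summed level of 5 monocyte markers was 1906 to 3078 CPM after saline, 2989 to 3219 after free R848 and 1324 to 1359 after medium R848-BPDs. That of 5 neutrophil markers was 19.5 to 31.5, 40.0 to 44.5 and 63.3 to 111 CPM, and that of 5 osteoclast markers 150 to 684, 635 to 717 and 957 to 1305 CPM. Low levels of 5 fibroblast markers moved too, at 4.50 to 12.6, 9.24 to 15.4 and 20.3 to 36.0 CPM, with no overlap of the medium R848-BPD tumors with the others. For the markers of DC, plasmacytoid DC, MC38, T, NK, B and endothelial cells, medium R848-BPD tumors overlapped saline or free R848 tumors. The 8 macrophage markers summed to 13238 to 15395, 12474 to 14404 and 11253 to 12093 CPM, all 8 detected in every tumor, and 6 erythroid markers gave 4, 3 and 1 UMIs in all. The median mitochondrial share of UMIs in macrophage-like cells was 2.99% and 3.35% in the medium R848-BPD tumors, below the saline (3.36% to 3.84%) and free R848 tumors (3.95% to 5.17%), and over all cells it was 3.21% and 3.24% against 3.62% to 4.25% and 4.03% to 5.44%. The part of these shifts in the 8 genes was not tested.

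In monocyte-like cells, 7 of the 8 genes could be tested and 4 rose after medium R848-BPDs against free R848, where 5.17% of 6422 genes were called (2.34% higher): Blvrb, Fth1, Slc11a1 and Tfrc. Fth1 was at 7829, 6677 and 9842 CPM after saline, 8367, 6829.9 and 9091 after free R848, and 21037 and 21904 after medium R848-BPDs. The medium R848-BPD tumors stood far above the other 6, and the fold change against free R848 was 1.49 ± 0.18 on the log2 scale (edgeR adjusted p = 0.000315). This call held in 15 of 15 settings. Blvrb was at 36.5, 82.9 and 45.2 CPM after saline, 107, 53.9 and 92.3 after free R848 and 234 and 241 after medium R848-BPDs, a rise of 1.55 ± 0.29 over free R848 (adjusted p = 0.00603).

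Slc11a1 in monocyte-like cells was at 377, 512 and 576 CPM after saline, 599.99, 409.8 and 419.8 after free R848, and 978 and 932 after medium R848-BPDs. Only the last group stood apart, and the rise over free R848 was 1.08 ± 0.22 (edgeR adjusted p = 0.00941). Tfrc was at 58.4, 34.1 and 84.1 CPM after saline, 29.999, 47.4 and 30.8 after free R848, and 150.04 and 63.6 after medium R848-BPDs. The call of Tfrc against free R848 (1.73 ± 0.38, adjusted p = 0.0138) was made with the medium R848-BPD tumors far apart. Without medium R848-BPD replicate 1, only 1 of the tested genes was called in this comparison.

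Spic in monocyte-like cells was at 1.83, 0 and 7.79 CPM after saline, 28.6, 2.16 and 8.79 after free R848, and 115 and 18.2 after medium R848-BPDs, from 0 to 40 UMIs per tumor. One free R848 tumor lay above the lower medium R848-BPD tumor, and the difference of 2.36 ± 0.72 did not pass (edgeR adjusted p = 0.0749). Against saline, where 9.03% of genes were called (3.35% higher), 6 of 7 rose: Spic (4.29 ± 0.88, adjusted p = 0.00605), Blvrb, Hmox1 (1.70 ± 0.47, adjusted p = 0.0348), Fth1, Ftl1 (1.23 ± 0.25, adjusted p = 0.00564) and Slc11a1. The calls against saline held in 10 of 13 settings for Spic, 10 of 15 for Hmox1, 12 of 15 for Slc11a1 and 13 of 15 for Ftl1. Those of Blvrb and Fth1 held in 15 of 15. Free R848 against saline gave 0 of 7, with 0.249% of genes called. As in macrophage-like cells, markers moved with the treatment: the 5 monocyte markers summed to 6009 to 7773, 8057 to 10236 and 3691 to 3978 CPM after saline, free R848 and medium R848-BPDs, and the 5 osteoclast markers to 52.2 to 183, 128 to 232 and 556 to 764 CPM. Their part in these differences was not tested.

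Outside these 2 classes few differences passed. For medium R848-BPDs against free R848, edgeR called 0 of 5 genes in DC-like cells (0.09% of all genes called), 0 of 4 in NK-like (0.163%), 0 of 5 in T-like (0.0324%) and 0 of 6 in MC38-like cells (0.36%). DESeq2 called 1 gene in NK-like, 2 in T-like and 1 in MC38-like cells. The share of all genes that DESeq2 called in NK-like and T-like cells is not given here. Those counts thus have no background beside them. Against saline 1 gene passed, Ftl1 in NK-like cells, at 162, 112.5 and 135 CPM after saline, 204, 171 and 186 after free R848 and 248 and 267 after medium R848-BPDs (0.90 ± 0.19, adjusted p = 0.0299, with 0.714% of all genes called, 0.489% higher). This call held in 8 of 16 alternative settings. The other comparisons of these classes gave 0 calls: in DC-like cells free R848 against saline (2.86% of all genes called) and medium R848-BPDs against saline (9.63%, of which 5.49 percentage points were higher), in T-like cells medium R848-BPDs against saline (0.0162%, all higher), and in MC38-like cells free R848 against saline (0.00946%) and medium R848-BPDs against saline (1.06%, of which 0.464 were higher). In T-like cells Fth1 was at 1877, 2200.2 and 1573 CPM after saline, 1411, 1827 and 2192 after free R848, and 2984 and 6052 after medium R848-BPDs. The second medium R848-BPD tumor, with 30 T-like cells, was also the highest T-like sum for Hmox1 (101 CPM), Ftl1 (616) and Slc11a1 (176). Macrophage markers in its T-like cells summed to 340.04 CPM, against 148 to 325 in the other 7 tumors, and their part was not tested. In MC38-like cells Hmox1 was at 110.4, 59.2 and 155 CPM after saline, 73.8, 73.2 and 107 after free R848, and 159.9 and 169 after medium R848-BPDs, a difference from free R848 of 0.97 ± 0.28 (adjusted p = 0.143).

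Whether the effect of medium R848-BPDs over free R848 differed between classes was tested with a term for class and treatment and the tumor as a block. It was larger in macrophage-like than in MC38-like cells for 1 of 8 genes, Blvrb (difference of log2 fold changes 1.47 ± 0.30, edgeR adjusted p = 0.0360), where 0.83% of genes were called. In MC38-like cells Blvrb was at 119, 105 and 108 CPM after saline, 104, 105 and 122 after free R848 and 113 and 89.4 after medium R848-BPDs, so its tumors overlapped in every group. Leaving out any 1 free R848 tumor or medium R848-BPD replicate 2 ended this call. Against T-like cells (0.123% of genes called, 0.0475% higher) and NK-like cells (0.0476% called, 0.019% higher) none passed. For Slc40a1 and Spic the tests against T-like and NK-like cells are void, since those sums held 0 Slc40a1 UMIs and 0 or 1 Spic UMI in each treatment. The test of Slc40a1 against MC38-like cells, which held 1 UMI in all, is void too. Spic in MC38-like cells averaged 1.97 CPM after medium R848-BPDs, 0.389 after free R848 and 0.0897 after saline, from 12, 4 and 1 UMIs, with both medium R848-BPD tumors above the others. The effect on Spic in macrophage-like cells differed from that in MC38-like cells by 0.38 on the log2 scale (edgeR adjusted p = 0.957), so no difference was detected at this depth.

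The cells that carried Spic were few. After drawing 1000 UMIs from each cell, the share of macrophage-like cells with a Spic UMI was 0%, 0.333% and 0.245% in the saline tumors, 1.23%, 0.462% and 1.15% in the free R848 tumors, and 3.15% (18 of 572 cells) and 3.81% (15 of 394 cells) in the medium R848-BPD tumors. The group means were 0.193% ± 0.172 (SD, n = 3), 0.949% ± 0.424 (SD, n = 3) and 3.48% ± 0.467 (SD, n = 2). The groups did not overlap, and each pair gave p = 0.1 in a two-sided exact permutation test, the smallest these group sizes allow. The UMIs were drawn once, which left 4, 12 and 33 positive cells after saline, free R848 and medium R848-BPDs. The variation between draws was not measured. The 95% Clopper-Pearson intervals of the medium R848-BPD tumors, which cover counting error alone, were 1.88% to 4.93% and 2.15% to 6.20%. In all, 1 saline, 4 free R848 and 0 medium R848-BPD cells were too shallow for the draw.

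Without the draw the shares were 1.42%, 2.96% and 9.38%, and free R848 then overlapped saline (exact permutation p = 0.3). With 2000 UMIs drawn they also overlapped (exact permutation p = 0.7). In classes that should lack Spic, with 1000 UMIs drawn per cell, 0 of 458, 477 and 508 MC38-like cells held a Spic UMI after saline, free R848 and medium R848-BPDs, which at that depth allows shares of up to 0.655%, 0.629% and 0.591%. In NK-like cells the counts were 0 of 344, 238 and 205 (up to 0.872%, 1.26% and 1.46%), and in T-like cells 0 of 192, 195 and 149 (up to 1.56%, 1.54% and 2.01%). These limits depend on the number of cells and do not hold at full depth, where the MC38-like shares after free R848 and medium R848-BPDs were above them. Without the draw, Spic UMIs were found in 26 of 1808, 38 of 1407 and 92 of 966 macrophage-like cells after saline, free R848 and medium R848-BPDs, in 1 of 458, 4 of 477 and 5 of 508 MC38-like cells, in 0 of 346, 0 of 238 and 1 of 205 NK-like cells and in 1 of 195, 0 of 196 and 1 of 150 T-like cells. The pooled macrophage-like shares of 1.44%, 2.70% and 9.52% stood beside 0.218%, 0.839% and 0.984% in MC38-like cells, which were read more deeply. Median depth was 5477 UMIs in macrophage-like, 5956 in NK-like, 4695 in T-like and 12421 in MC38-like cells. In monocyte-like cells the share reached 14.0% (8 of 57 cells) in medium R848-BPD replicate 1 but 2.08% (1 of 48) in replicate 2.

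**Figure D3:**
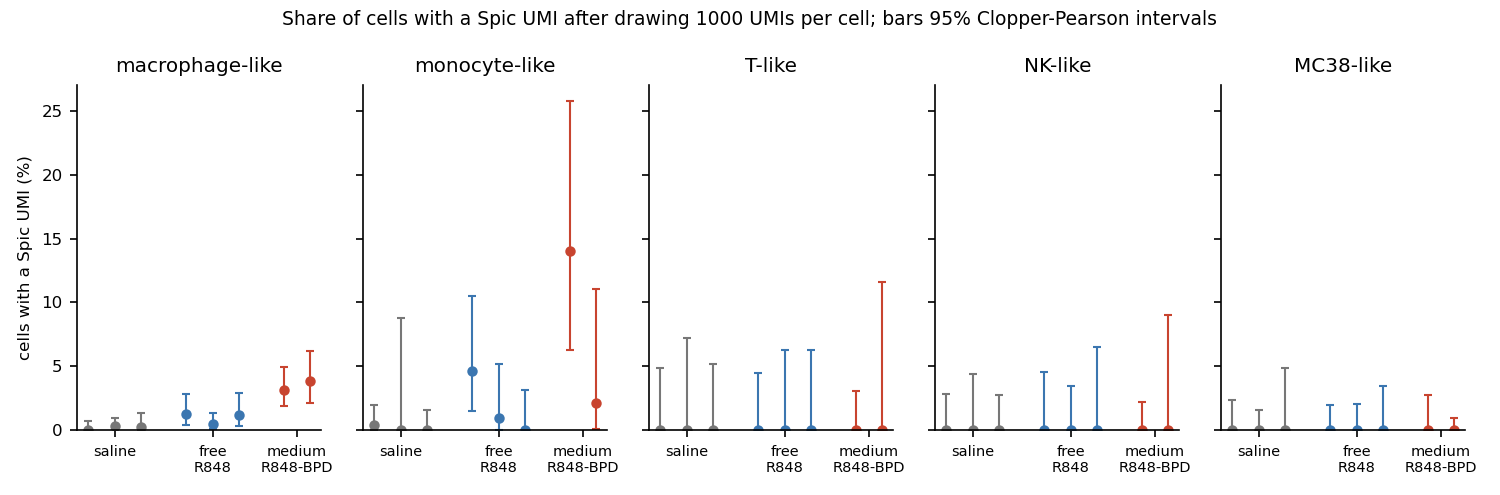
Percent of cells with at least 1 Spic UMI after drawing 1000 UMIs per cell, by class and tumor, with 95% Clopper-Pearson intervals. Macrophage-like cells of the medium R848-BPD tumors stand at 3.15% and 3.81%, and all T-like, NK-like and MC38-like points are at 0.

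Within the macrophage-like class, cells with a Spic UMI were compared with cells without one in the 6 tumors that held at least 10 of each, with the tumor as a block, so that the treatment does not enter. Of the other 7 genes, 4 were higher in Spic-positive cells, where 1.8% of 8346 genes were called (0.815% higher), and these were the exporter, the heme oxygenase and both ferritin chains. Slc40a1 differed most. It gave 115 CPM in Spic-positive against 4.52 in Spic-negative cells of saline replicate 2, and 91.8 against 6.92 and 131 against 13.8 in the medium R848-BPD tumors. In the free R848 tumors it gave 0 against 4.44, 13.2 against 11.8 and 233 against 11.1 CPM. It was thus higher in 5 of 6 tumors, with a log2 fold change of 3.41 ± 0.35 (edgeR adjusted p = 1.8e-08), and the Spic-positive sums held 0 to 49 Slc40a1 UMIs. The call of Slc40a1 held in 8 of 10 alternative settings and was lost with DESeq2 and without the tumor block.

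Hmox1 was higher in Spic-positive cells in 6 of 6 tumors, with a median of 789.8 against 258 CPM (1.53 ± 0.18, edgeR adjusted p = 6.6e-07). The gap was narrow in medium R848-BPD replicate 2, at 1157 against 1074 CPM, and wide in saline replicate 2, at 501 against 59.0. Ftl1 and Fth1 were higher in 6 of 6 tumors by smaller amounts, 0.59 ± 0.11 (adjusted p = 0.000454) and 0.43 ± 0.09 (adjusted p = 0.00367). Blvrb (0.34 ± 0.14, adjusted p = 0.310), Slc11a1 (0.12 ± 0.10, adjusted p = 0.805) and Tfrc (-0.66 ± 0.29, adjusted p = 0.360) did not pass. Blvrb was higher in 5 of 6 tumors, Slc11a1 in 6 of 6 and Tfrc in 1 of 6.

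Depth differed between the 2 kinds of cells in some tumors, most in free R848 replicate 3, where Spic-positive cells had a median of 7619 UMIs against 4662. In the medium R848-BPD tumors the medians were 6249.5 against 6750.5 and 4669 against 4636. A cell read more deeply is more likely to show a Spic UMI, and the part of depth in these differences was not tested. With any 1 tumor left out, 4 of 7 genes were called. Without the block 0 of 7 passed, and with Spic read after drawing UMIs, which left 2 tumors, 2 passed. Beside the 0.815% of all genes that were higher, the same cells were also higher for 6 of 8 tested genes of the NRF2 and BACH1 response outside iron, among them Gclm (1.17 ± 0.19, edgeR adjusted p = 0.000114) and Slc7a11 (1.10 ± 0.21), which serve glutathione synthesis. Vcam1 (1.76 ± 0.27) and Treml4 (1.37 ± 0.36), 2 of 4 tested genes of red pulp macrophages, were higher as well, whereas Axl was lower (-0.75 ± 0.15). Of the 32 other heme and iron genes tested, 2 were higher, again beside 0.815% of all genes, Nr1h3 (0.85 ± 0.16), the liver X receptor alpha, and Slc48a1 (0.68 ± 0.17), a heme transporter of the phagolysosome. The 10 called genes with the largest change were taken at a mean log2 CPM of at least 4. Among these 10, Slc40a1 was the only one higher in Spic-positive cells. The cell cycle genes Hmmr, Ccnb2 and Prc1 with 2810417H13Rik were among those lower.

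**Figure D4:**
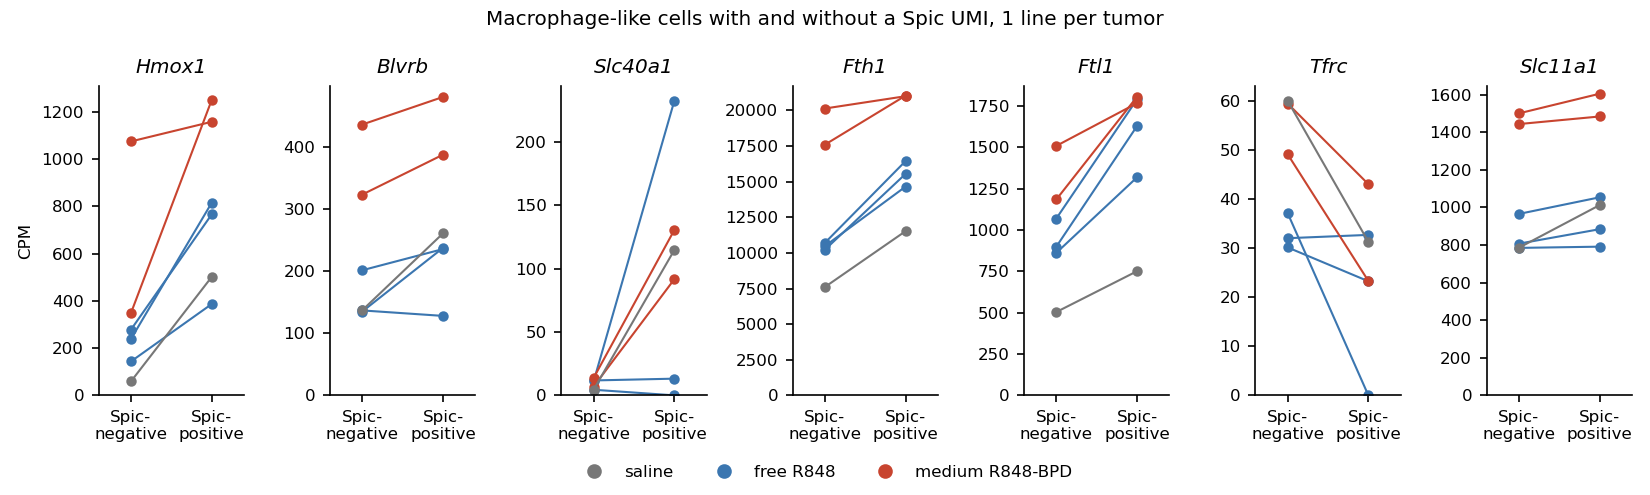
Level of the other 7 genes (CPM, linear axis from 0) in macrophage-like cells without and with a Spic UMI, with 1 line per tumor for 6 tumors. Lines rise in 6 of 6 tumors for Hmox1, Ftl1 and Fth1 and in 5 of 6 for Slc40a1, and for Tfrc 1 of 6 rises.

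The genes were not spread evenly over the macrophage-like cells. Clusters drawn without the 8 genes gave 11 groups of at least 100 macrophage-like cells. Of these, 4 drew most of their cells from medium R848-BPD tumors, and they held 84.8% of the macrophage-like cells of those tumors against 3.17% of the others. They also held 237 of 341 Spic UMIs. The clusters differed in which step of heme and iron handling was high. The levels by cluster are descriptions. Those 4 clusters come mostly from 2 tumors, and 159 of the 186 cells of the Slc13a3 cluster come from medium R848-BPD replicate 1 alone.

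The cluster led by Hp, Lcn2 and Saa3, acute-phase genes, had the highest Spic level, 68.3 CPM, with a Spic UMI in 53 of 353 cells, and it made up 33.6% and 38.3% of the macrophage-like cells of the medium R848-BPD tumors. The cluster led by Mmp12, Inhba and Nos2 had the highest Fth1, 30553 CPM, with Hmox1 at 1144 and Spic at 31.9. The cluster led by Lyve1, Retnla, Cd5l and Cd163, markers of resident and scavenging macrophages, had the highest Hmox1 (1677 CPM), Slc40a1 (41.0) and Blvrb (438), but Spic at 11.6. The cluster led by Slc13a3 and Tmem176a had the highest Slc11a1, 1744 CPM. Spic and Hmox1 peaked in different clusters. The cluster of cycling cells led by Hmmr and Aspm had the lowest Spic, 0.586 CPM, and the highest Tfrc, 67.6.

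The 2 medium R848-BPD tumors were made up differently. The Lyve1 and Cd163 cluster held 5.07% of macrophage-like cells in replicate 1 and 26.6% in replicate 2, in the same order as Hmox1 (455 and 1148 CPM). The Slc13a3 cluster held 27.8% and 4.31%. The part of cluster makeup in the difference between the 2 tumors was not tested.

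**Figure D5:**
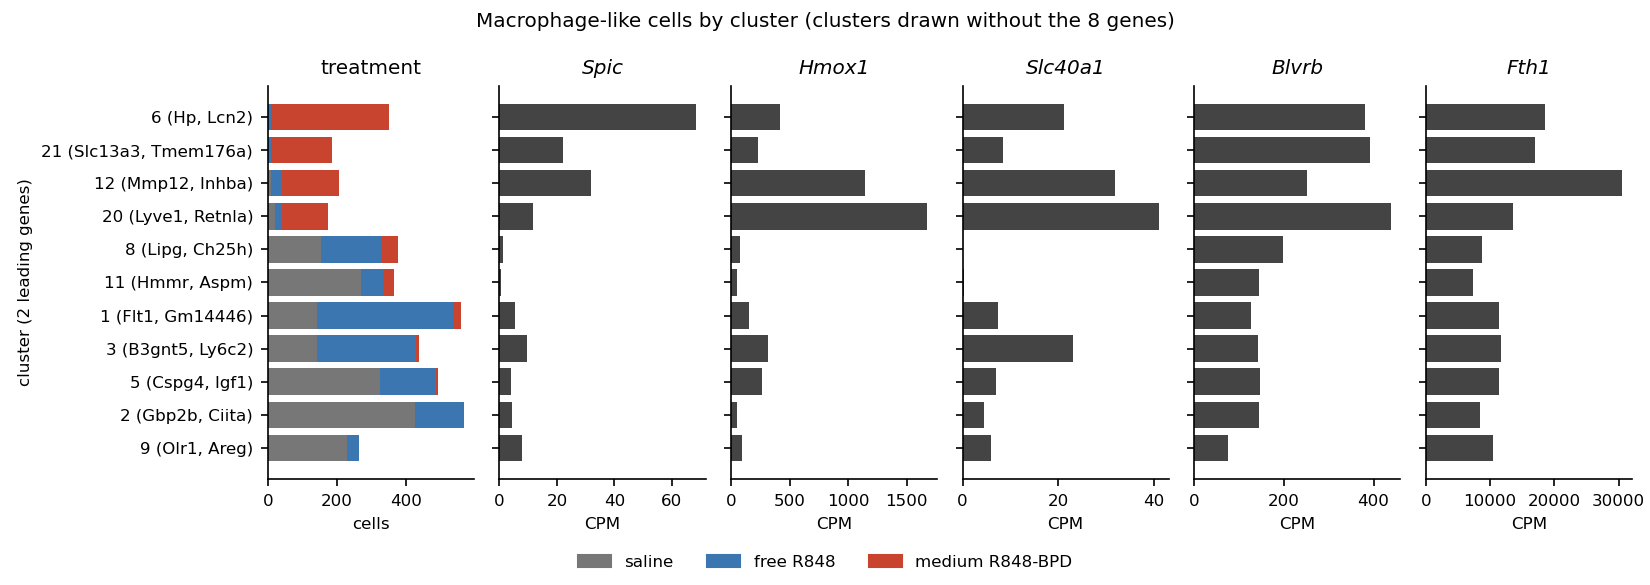
Macrophage-like cells by cluster: the first panel counts cells by treatment, and the others give the level of Spic, Hmox1, Slc40a1, Blvrb and Fth1 in CPM over all cells of the cluster. The 4 upper clusters come mostly from medium R848-BPD tumors, with Spic highest in the Hp and Lcn2 cluster (68.3 CPM) and Hmox1 highest in the Lyve1 cluster (1677 CPM).

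Of the other genes of heme and iron handling, a minority passed. In macrophage-like cells, 39 of 46 listed genes were tested, and after medium R848-BPDs 3 rose and 0 fell against free R848, where 0.98% of all genes were called higher, with a median log2 fold change of 0.05 against -0.01 over all genes. Those 3 were Lcn2 (6.19 ± 0.31), whose protein binds the iron carriers of bacteria, Fbxl5 (2.59 ± 0.37), the iron sensor that marks iron regulatory proteins for breakdown, and Cp (2.54 ± 0.50), the ferroxidase that works with ferroportin. Lcn2 was at 9.68, 8.12 and 2.47 CPM after free R848 and 480.3 and 583 after medium R848-BPDs, with 0, 1 and 0 UMIs in the saline tumors. Fbxl5 was at 50.5, 64.5 and 50.8 CPM after saline, 74.8, 55.3 and 56.3 after free R848, and 196 and 557 after medium R848-BPDs.

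Against saline 8 of the 39 rose and 1 fell, where 8.43% of all genes were called and 4.22% were higher, with a median of 0.04 against -0.00 over all genes. Besides these 3 they were Cd163, the receptor for hemoglobin and haptoglobin complexes (4.95 ± 1.15), Nr1h3 (1.28 ± 0.33), Slc48a1 (1.12 ± 0.22), the mitochondrial iron importer Slc25a37 (0.85 ± 0.17) and Hmox2. Nfe2l2, which encodes NRF2, was the one that fell (-0.57 ± 0.14). Cd163 was at 1.53, 0.313 and 3.45 CPM after saline, 0.293, 9.39 and 0.988 after free R848, and 12.7 and 72.2 after medium R848-BPDs, so most of it lay in replicate 2. All 8 genes of heme synthesis were tested and 0 passed in either comparison. Free R848 against saline gave 0 of 39.

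Of 9 tested NRF2 and BACH1 targets outside iron, 3 rose against free R848 (Gclm 1.82 ± 0.19, Gclc 1.67 ± 0.28 and Gsr 1.55 ± 0.15) and 5 against saline, where 0.98% and 4.22% of all genes were called higher, with medians of 1.55 and 1.38 on the log2 scale. Gclm was at 30.01, 27.5 and 35.5 CPM after saline, 37.5, 50.2 and 35.6 after free R848, and 129.9 and 166 after medium R848-BPDs. Hmox1 belongs to the same response. Of 6 tested red pulp macrophage genes, Axl fell against free R848 (-1.27 ± 0.14) and against saline (-1.63 ± 0.14), and Cd163 rose against saline.

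Over the 52 sums of tumor and class, the genes whose log2 CPM ran closest to Spic were Cacna1d (Pearson r = 0.87), H2-D1 (0.864), Pirb (0.85), Ms4a8a (0.841) and Gm5431 (0.839), out of 8965. Those closest to Hmox1 were Ctsl (0.895), Lhfpl2 (0.894), Zeb2 (0.883), Cstb (0.877) and Fnip2 (0.866). Among the 8 genes, Spic ran closest to Slc40a1 (0.846), and Hmox1 to Blvrb (0.853). These are descriptions: sums of a tumor share a library, sums of a class share a cell type, 20 of the 52 held 0 Spic UMIs, and the level of Spic ran against the depth of the sum (r = -0.48). Slc40a1 held 0 UMIs in all 8 T-like, all 8 NK-like and 7 of 8 MC38-like sums. Where both genes were at 0, the offset added before taking logs sets both levels. The r of Spic with Slc40a1 therefore cannot show whether they ran together.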

How the data were processed

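The deposited tables, 1 for each of the 8 tumors, hold the authors' unnormalized UMI counts (Seq-Well, mm10 and bcl2fastq per the labels; aligner and annotation not given in the sources used here). The genes described and the gene lists were chosen with earlier results of these data known. A cell had to show over 400 but under 10000 genes and under 50000 UMIs, with a mitochondrial share no higher than 15%, and classes came from marker genes, with Emr1, Chi3l3 and Fam159b read as older symbols. Scrublet (scanpy 1.11.5) marked 101 doublets (1.03%), which were kept. Counts were summed per tumor and class where a tumor held at least 10 cells and tested with edgeR 4.0.16 in R 4.3.3 (quasi-likelihood F test, TMM, filterByExpr, all 3 treatments in 1 fit, Benjamini-Hochberg over all genes tested, threshold 0.05). The SE is the log2 fold change over the root of F. DESeq2 1.42.0, RLE factors, no filter, other gates, a replicate block and leaving out each tumor were alternatives. Exact permutation tests of Spic shares used scipy 1.17.1. Clusters (32, resolution 2, 30 components, 20 neighbours) were drawn without the 8 genes. Intervals are 95% Clopper-Pearson, and a count of 0 was given a limit of 3 counts. On simulated counts for macrophage-like cells, medium R848-BPDs against free R848, the test recovered 33.0% of 2-fold and all of 100 4-fold changes, with 3 false calls among 10152 genes. The simulation gave every gene the same dispersion (0.05) and all tumors 1 mean profile, and changed only genes above a minimum level. These rates therefore do not carry over to genes that vary more between tumors. The 8 genes were named in every class. Up to 10 other heme and iron genes were named in macrophage-like cells, those called with the largest change. Between Spic-positive and Spic-negative cells, the 10 called genes with the largest change were considered, at a mean log2 CPM of at least 4. NRF2, red pulp and other genes were named after their values were seen. Nothing says how the mice of the single-cell experiment were assigned to treatments or days, so p-values measure the spread between these tumors.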

Additional observations from a re-analysis of the deposited data

Results flagged for a closer look

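Blvrb differed in its response between macrophage-like and MC38-like cells: the effect of medium R848-BPDs over free R848 was 1.47 ± 0.30 larger on the log2 scale in macrophage-like cells (edgeR interaction test, adjusted p = 0.0360). It was drawn out because the difference between the classes itself passed a test. It rests on 2 medium R848-BPD tumors, and the call was lost without replicate 2 of that group or without any 1 free R848 tumor.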

How the results depend on the processing

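For medium R848-BPDs against free R848 in macrophage-like cells, 3 of the 8 genes were called, against 5 with DESeq2, 7 with no filter, 6 with only these groups, 1 with classes from clusters, 1 with a stricter gate and 0 to 6 leaving out 1 tumor (0 without medium R848-BPD replicate 2, 1 without each free R848 tumor, 6 without saline replicate 2). Free R848 against saline (0 called) gave 1 with DESeq2, 6 with no filter and 0 to 1 leaving out 1 tumor. Medium R848-BPDs against saline (6) gave 2 with only these groups and 3 to 6 leaving out 1 tumor (3 without medium R848-BPD replicate 2). For medium R848-BPDs against free R848, monocyte-like cells (4) gave 8 with no filter and 1 to 5 leaving out 1 tumor. DC-like cells (0) gave 2 with classes from clusters and 0 to 1, NK-like cells (0) 1 with DESeq2, 1 with no filter and 0 to 1, T-like cells (0) 2 with DESeq2, 2 with no filter and 0 to 3, and MC38-like cells (0) 1 with DESeq2, 3 with no filter, 1 with only these groups (chosen after seeing the data) and 0 to 1. The difference from MC38-like cells (1) gave 0 to 2, and Spic-positive cells (4) gave 0 without the tumor block, 2 with Spic read after drawing UMIs and 4 to 4. The cause of these changes was not tested. Counts under a setting whose calls over all genes are not given have no background beside them.

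With a replicate block, 0 genes were called in macrophage-like cells for medium R848-BPDs against free R848 and 7 in monocyte-like cells. How many of all genes the block called in monocyte-like cells is not given here, so the 7 are not read as a result about these genes. Same-numbered tumors had correlations of -0.29 to 0.28, so the numbers were not taken to pair them.

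Spic shares of macrophage-like cells were 1.37%, 4.40%, 9.38% and 2.85% for medium R848-BPDs with 500 UMIs drawn, 2000 drawn, no draw and a stricter gate (3.15% to 3.81% leaving out 1 tumor), 0.382% and 2.96% for free R848 with 500 drawn and no draw (0.805% to 1.19%), and 0.104%, 0.642%, 1.42% and 0.115% for saline with 500 drawn, 2000 drawn, no draw and a stricter gate (0.123% to 0.289%), against 3.48%, 0.949% and 0.193% as reported.

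Over all genes in macrophage-like cells, 157 calls against free R848 became 362 with DESeq2, 915 with no filter, 456 with only these groups, 30 with the block and 93 with a stricter gate, and 19 to 449 leaving out 1 tumor. Against saline 869 became 1813 with no filter, 164 with only these groups, 419 with the block and 131 without medium R848-BPD replicate 2, and for free R848 against saline 0 became 105 with DESeq2, 618 with no filter and, leaving out saline replicate 2, 131. Monocyte-like cells went from 332 to 558 with no filter and 71 without medium R848-BPD replicate 1, and in MC38-like cells 38 became 148 with DESeq2, 459 with no filter and 13 with the block. With 2 medium R848-BPD tumors, changes near 2-fold are at the limit of what the test can call.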

Other observations

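Cells that no marker gate placed in a class also held Spic. There were 50 and 17 Spic UMIs in the 134 and 187 such cells of the medium R848-BPD tumors, 0 in all 3 free R848 tumors, and 9, 0 and 2 in the saline tumors. In 1 medium R848-BPD cell of the macrophage-like class Spic reached 15 UMIs, the highest count in any macrophage-like cell.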
